A study of Mus musculus with 4 samples.

Results

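The genes described here are 9 components of regulated secretion: the small GTPases Rab3a, Rab3b, Rab3d, Rab27a and Rab27b, the Rab27 effectors Sytl2 and Sytl4, and the vesicle SNARE proteins Vamp3 and Vamp8. They were taken by symbol from an expression table of 23997 genes, and all 9 were found. They were selected on their function with their FPKM values in all 4 columns already known, so the differences below describe these columns and are given with no test. RNA was sequenced from lung endothelial cells of C57BL/6 mice, cultured in EBM-2 medium with 10% serum. The cells received control siRNA or GR siRNA for 48 h, the latter directed at Nr3c1, the gene of the glucocorticoid receptor (GR), and in each siRNA arm were left without or given 100 nM dexamethasone (DEX), a synthetic glucocorticoid that activates GR, for 18 h. Each siRNA arm thus has a column without and a column with DEX, and all 4 groups are cultured cells of 1 strain that received an siRNA. The study design names 3 replicates per condition, while the table holds 1 column per condition; what became of the replicates was not given in the sources used here, so no spread between them can be stated.

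Endothelial cells store von Willebrand factor, P-selectin and other proteins in elongated granules called Weibel-Palade bodies, and release them within minutes of a stimulus. Rab GTPases on the granule surface select the motor, tether and fusion proteins that a granule meets: Rab27a and the Rab3 proteins sit on Weibel-Palade bodies, where Rab27a binds effectors such as MyRIP and the synaptotagmin-like protein Slp4-a (gene Sytl4). Fusion itself is carried out by SNARE proteins, with a VAMP on the vesicle pairing with a syntaxin and a SNAP-family protein on the plasma membrane.

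Because the siRNA targets a transcription factor, the letters before the annotated starts of 3 members are shown: Rab3a, the member with the largest difference between the siRNA arms, its relative Rab3d, which differed little, and Rab27a. Promoters were listed by RefSeq (GRCm38.p6) for 6 of the 9 members, with 8 starts in all. Each run below is the 250 bases before the first listed start, 5′ to 3′ on the gene's strand. These starts differ from the GENCODE gene starts given below. A check of the bases around each start against GENCODE transcripts matched for Rab3a and Rab3d, and did not match for Rab27a. Capitals mark, on either strand, CCAAT (the CCAAT box), GGGCGG (the GC box) and TGACG (the core of a cAMP response element).
Rab3a, chr8:70754453-70754702, plus strand: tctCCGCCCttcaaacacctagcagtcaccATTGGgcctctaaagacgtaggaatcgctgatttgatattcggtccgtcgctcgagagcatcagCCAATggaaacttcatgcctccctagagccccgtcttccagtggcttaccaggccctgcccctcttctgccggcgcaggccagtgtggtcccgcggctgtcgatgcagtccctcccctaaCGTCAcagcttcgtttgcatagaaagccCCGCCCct
Rab3d, chr9:21918184-21918433, minus strand: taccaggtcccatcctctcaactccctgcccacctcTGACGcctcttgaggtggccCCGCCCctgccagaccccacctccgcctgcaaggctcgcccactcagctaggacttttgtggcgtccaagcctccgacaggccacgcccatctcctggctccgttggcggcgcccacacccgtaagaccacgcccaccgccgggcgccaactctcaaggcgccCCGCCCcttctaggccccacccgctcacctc
Rab27a, chr9:73044560-73044809, plus strand: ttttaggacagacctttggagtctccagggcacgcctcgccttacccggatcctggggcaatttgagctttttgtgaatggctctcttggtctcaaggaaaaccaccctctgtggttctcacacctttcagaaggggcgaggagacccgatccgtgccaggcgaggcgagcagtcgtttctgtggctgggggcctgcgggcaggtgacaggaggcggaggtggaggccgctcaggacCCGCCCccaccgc

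The Rab3a window held 2 CCAAT boxes, 2 GC boxes and 1 TGACG core at position −36 from the start. The Rab3d window held 2 GC boxes and 1 TGACG core at position −214, and the first Rab27a window held 1 GC box. Over all 32851 promoters listed, windows of this length held CCAAT in 33.9%, GGGCGG in 32.7% and TGACG in 17.8%; over the 10943 promoters of genes with at least 1 FPKM, the shares were 35.5%, 59.0% and 27.5%. The second listed start of Rab27a had 2 CCAAT boxes and a TGACG core at position −22, and the second start of Rab3a had none of the motifs searched. AGAACA, the core of a glucocorticoid response element, was matched on either strand in 0 of the 8 member windows, none of which is of Rab27b. It was matched in 16.1% of all promoters and in 10.4% of those of genes with at least 1 FPKM. The shares over promoters include chromosome 18, which the member windows do not. The TATA box TATAAA was found in 1 of the 8 member windows, that of Rab3b, in 12.4% of all promoters and in 6.14% of those of genes with at least 1 FPKM. GC content was 58.8% for Rab3a, 69.2% for Rab3d and 62.0% for Rab27a, against a median of 60.0% over the promoters of genes with at least 1 FPKM. The Vamp8 window was less rich, at 43.6%.

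In mm10 coordinates (GENCODE M21, 1-based) Rab3a (ENSMUSG00000031840.12) lies at chr8:70754679-70758677 on the plus strand, Rab3b (ENSMUSG00000003411.10) at chr4:108879063-108943324 on the plus strand and Rab3d (ENSMUSG00000019066.13) at chr9:21907491-21918192 on the minus strand. Rab27a (ENSMUSG00000032202.11) lies at chr9:73044854-73097629 on the plus strand and Rab27b (ENSMUSG00000024511.15) at chr18:69979131-70141605 on the minus strand. Sytl2 (ENSMUSG00000030616.15) is at chr7:90302252-90410719 on the plus strand and Sytl4 (ENSMUSG00000031255.14) at chrX:133936385-133981812 on the minus strand. Vamp3 (ENSMUSG00000028955.3, chr4:151047300-151057963) and Vamp8 (ENSMUSG00000050732.9, chr6:72385223-72390703) are both on the minus strand. All 9 are protein-coding. The share of a member's 31-base words also present in another gene was 0% for Rab3a and Sytl2 and reached 9.03% for Vamp3 and 8.33% for Rab3b. Exons of Rab3a overlap those of Mpv17l2 on the opposite strand over 1.30% of their length, exons of Rab27a overlap those of Gm27186 on the same strand over 3.84%, and exons of Rab3b overlap 8030443G20Rik on the opposite strand. The strand setting of the counting was not given in the sources used here, so reads of genes on opposite strands may not be told apart.

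The values are FPKM, fragments counted per transcript length and per library size, and differences are taken on log2(FPKM + 1), a scale on which the difference of a scarce gene looks smaller than it is. Genes were compared where at least 1 of the columns compared reached 1 FPKM, and 1.5-fold on the log2(FPKM + 1) scale was used to count genes. The absolute depth is unknown; the value of a single fragment placed relative depth at 0.671 for control siRNA, 0.962 for control siRNA with DEX and 0.811 for GR siRNA with DEX, with GR siRNA as 1, so low values are least precise with control siRNA. Nr3c1, the siRNA's target, stood at 14.4 and 14.3 FPKM in the control siRNA columns without and with DEX, and at 5.45 and 5.32 FPKM in the GR siRNA columns. All 10 endothelial markers checked, among them Cldn5, Cdh5 and Esam, were above 1 FPKM, and their summed level was 2405 and 2416 FPKM with control siRNA against 2266 and 2210 FPKM with GR siRNA. Cldn5, a tight junction protein, made up most of that gap, at 493 and 525 FPKM against 368 and 332 FPKM. The median difference of the 10 markers was −0.03 without DEX and 0.01 with DEX. With GR siRNA, 3 of the 10 were higher and 7 lower without DEX, and 6 were higher and 4 lower with DEX. Of 12 markers of leukocytes, mast cells and platelets, 5 reached 1 FPKM (Cd68, Itgb2 and Kit were the highest); their sum was 244 and 227 FPKM with control siRNA against 278 and 307 FPKM with GR siRNA, and Ptprc, Cd3e and Tpsb2 were listed at 0 in every column. That sum is mostly Cd68 (176 and 161 against 194 and 218 FPKM) and Itgb2 (48.4 and 48.8 against 67.9 and 72.0 FPKM). Kit, a receptor of mast cells and some endothelial cells, was lower, at 12.1 and 10.7 FPKM against 6.16 and 5.07 FPKM. Pf4, a platelet marker named after its values were seen, was higher, at 5.89 and 5.15 FPKM against 8.08 and 8.68 FPKM. Of the markers compared, 3 were higher and 1 lower without DEX, and 3 were higher and 2 lower with DEX. Fibroblast and mural markers, 3 of 12 at 1 FPKM (Acta2, Col3a1 and Dcn), summed to 8.26 and 7.90 FPKM against 14.6 and 13.0 FPKM, with Rgs5 listed at 0; lung epithelial markers, 3 of 10 (Krt18, Ager and Sftpb), summed to between 7.13 and 8.14 FPKM, with Sftpa1 listed at 0. The part of these marker differences in the results below was not tested.

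Among the Rab3 GTPases, Rab3a was lower with GR siRNA whether or not DEX was present, while Rab3d was not. Rab3a, known for docking secretory vesicles in neurons and endocrine cells, stood at 19.7 FPKM in the control siRNA column without DEX and 19.6 FPKM in the one with DEX, against 8.39 and 7.70 FPKM in the matching GR siRNA columns. Both GR siRNA columns were below both control columns, and the columns within an arm lay close together. The level was 2.35-fold lower without DEX and 2.54-fold lower with DEX, log2 differences of −1.14 and −1.24. In bulk RNA, fewer cells that carry a transcript and less of it per cell cannot be told apart. Among 9031 genes of at least 5 FPKM, Rab3a had the 58th lowest difference without DEX and the 64th lowest with DEX.

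Rab3d, a Rab3 form found on Weibel-Palade bodies and on the granules of exocrine cells, stood at 7.16 and 7.78 FPKM with control siRNA, without and with DEX, and at 8.42 and 8.17 FPKM with GR siRNA. The GR siRNA columns were the higher pair, by log2 differences of 0.21 without DEX and 0.06 with DEX, neither near 1.5-fold. Rab3b was near the floor of the table, at 0.058 and 0.076 FPKM with control siRNA and 0.22 and 0.21 FPKM with GR siRNA. It did not reach 1 FPKM in any column and was not among the genes compared.

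With Rab3a lower and Rab3d nearly level, Rab3a stood above Rab3d in the control columns, and the pair was nearly equal in the GR siRNA columns, with no spread to set that gap against. Rab3a was 2.75 times the level of Rab3d with control siRNA and 2.52 times with control siRNA and DEX, against 0.996 and 0.943 times in the GR siRNA columns. As a share of the summed FPKM of the 4 Rab3 genes (Rab3c, at most 0.0645% of the sum, included), Rab3a made up 73.2% and 71.4% with control siRNA and 49.2% and 47.8% with GR siRNA. The sum itself was 26.9 and 27.5 FPKM in the control arm and 17.0 and 16.1 FPKM in the GR siRNA arm.

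**Figure D1:**
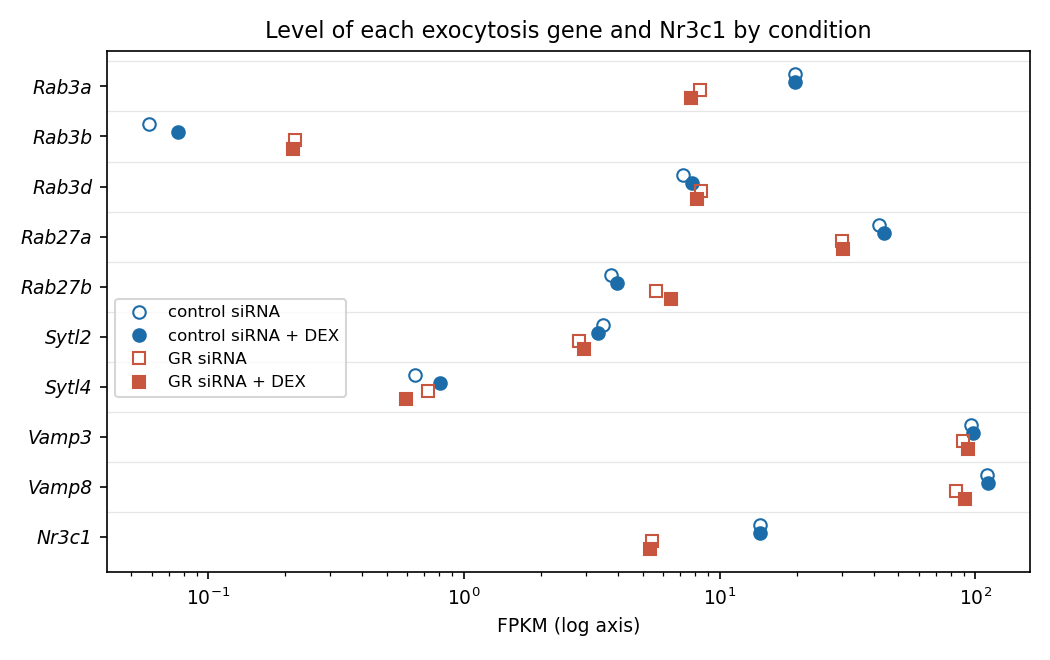
Deposited FPKM (log axis) of the 9 exocytosis genes and Nr3c1, 1 point per condition. Circles show the control arm, squares the GR siRNA arm, and filled symbols the columns with DEX. Rab3a and Nr3c1 have both squares well left of both circles (Rab3a 7.70 and 8.39 against 19.6 and 19.7 FPKM), Rab27b has them to the right, and open and filled symbols of 1 shape lie close together for most genes.

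The Rab27 pair showed opposite differences. Rab27a, the main Rab27 form of endothelium and the GTPase that holds Weibel-Palade bodies at the cell periphery, was the most abundant Rab among the members, at 42.1 and 43.7 FPKM in the control columns without and with DEX. It stood at 30.1 and 30.4 FPKM in the GR siRNA columns, lower than both control columns, by 1.40-fold without DEX and 1.44-fold with DEX (log2 differences −0.47 and −0.51), short of 1.5-fold. Rab27b, which acts in mast cell and platelet granule release, was 3.77 and 3.96 FPKM with control siRNA and 5.61 and 6.42 FPKM with GR siRNA. Both GR siRNA columns were above both control columns. The FPKM ratio was 1.49 without DEX and 1.62 with DEX, and the log2(FPKM + 1) differences of 0.47 and 0.58 lay under the 1.5-fold limit of 0.585. Without a pseudocount the second would be past it.

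Rab27a was the major form in every column, 11.2 and 11.0 times the level of Rab27b in the control columns and 5.37 and 4.73 times in the GR siRNA columns. The share of Rab27b in the summed FPKM of both genes was 8.22% and 8.31% with control siRNA and 15.7% and 17.4% with GR siRNA, while the sum was 45.9 and 47.7 FPKM against 35.7 and 36.8 FPKM.

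**Figure D2:**
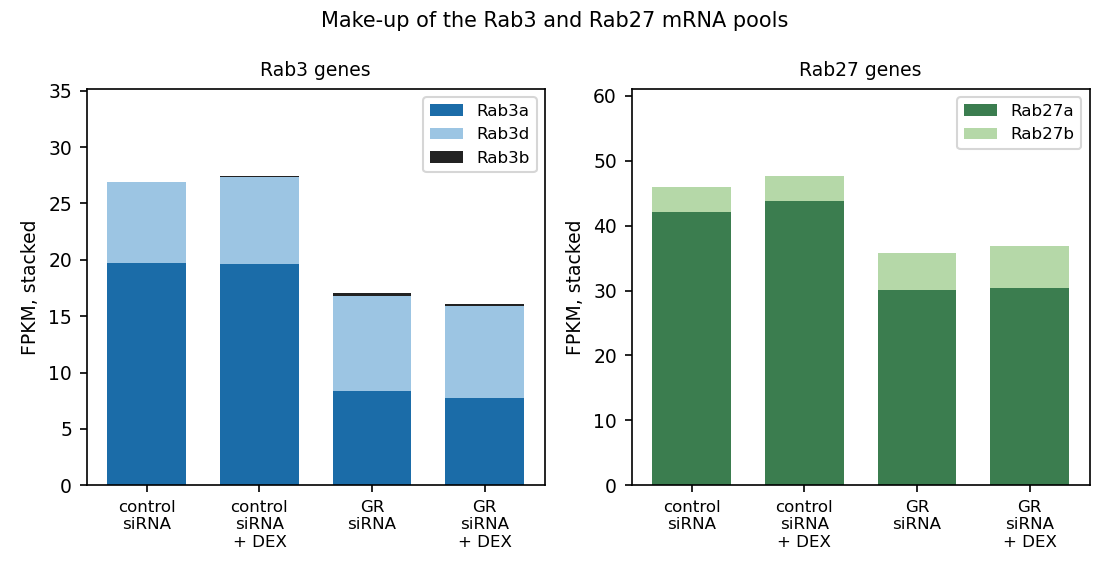
Stacked FPKM of the Rab3 genes (left) and the Rab27 genes (right) in the 4 conditions; each bar is 1 column of the table. The dark part of the left bars, Rab3a, goes from 19.7 and 19.6 FPKM with control siRNA to 8.39 and 7.70 FPKM with GR siRNA, while the pale part, Rab3d, stays between 7.16 and 8.42 FPKM.

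Of the synaptotagmin-like effectors, Sytl2, whose protein Slp2-a links Rab27 vesicles to the plasma membrane, was 3.48 and 3.34 FPKM in the control columns and 2.80 and 2.95 FPKM in the GR siRNA columns. The GR siRNA columns were the lower pair, with log2 differences of −0.24 and −0.14. Sytl4, whose protein Slp4-a binds Rab27a on Weibel-Palade bodies, was 0.64 and 0.80 FPKM with control siRNA and 0.72 and 0.59 FPKM with GR siRNA. Its columns overlapped between the arms, and it stayed under 1 FPKM in all 4. Sytl2 made up between 74.0% and 78.9% of the summed FPKM of the 5 Sytl genes.

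The vesicle SNAREs were the most abundant members. Vamp8, which drives regulated granule fusion in platelets, mast cells and exocrine glands, was 110 and 112 FPKM with control siRNA and 83.6 and 91.4 FPKM with GR siRNA, without and with DEX. Both GR siRNA columns were lower, by 1.32-fold and 1.22-fold (log2 differences −0.40 and −0.29). Vamp3, also called cellubrevin, a SNARE of recycling endosomes and of Weibel-Palade bodies, was 96.3 and 98.0 FPKM with control siRNA and 89.0 and 93.4 FPKM with GR siRNA, with log2 differences of −0.11 and −0.07. Vamp8 stood above Vamp3 in the control columns, at 1.15 and 1.14 times its level, and below it in the GR siRNA columns, at 0.939 and 0.978 times; this order rests on small gaps with no spread to set them against. Together with Vamp1, Vamp2, Vamp4, Vamp5 and Vamp7 (listed at 0 in every column) they summed to between 217 and 257 FPKM.

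Across the members, 1 of the 7 that reached 1 FPKM, Rab3a, was at least 1.5-fold lower with GR siRNA without DEX. The same 1 of 7 was lower with DEX, and 0 were 1.5-fold higher in either. That 0 depends on the processing, as Rab27b with DEX (0.58) passed the limit under all 4 other pseudocounts and scalings tried. The background was 2.54% of 11325 genes lower and 2.36% higher without DEX, and 2.62% of 11344 lower and 2.36% higher with DEX. Rab3a was also past 2-fold in both, as 0.715% and 0.776% of genes were on the lower side. The median difference of the 7 was −0.24 without DEX and −0.14 with DEX, against −0.01 over all genes in both; with no filter on low values, over all 9 members, it was −0.11 without DEX. The GR siRNA columns lay outside the range of the control columns for all 7, with 5 lower and 2 higher; 68.9% of 11445 genes did so, 36.6% lower and 32.3% higher. The comparisons without and with DEX share no column.

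The columns with DEX lay close to those without it for the 7 members at 1 FPKM or more. In the control arm the log2 differences of the 7 ran from −0.05 (Sytl2) to 0.11 (Rab3d), and in the GR siRNA arm from −0.11 (Rab3a) to 0.17 (Rab27b). At 1.5-fold, 0 of the 7 were called in either direction in either arm, where 1.08% of 11227 genes and 1.18% of 11310 genes were. All 7 belong to a class of long genes that share little sequence with others, chosen after the values were seen. Its genes have a longest transcript of at least 300 nt, under 10% of 31-base words shared and a symbol matched to exactly 1 GENCODE gene. In that class 0.0612% of 8164 and 0.0729% of 8230 genes passed, so 0 of 7 is near the background. Sytl4, under 1 FPKM, was 0.64 against 0.80 FPKM in the control arm and 0.72 against 0.59 FPKM in the GR siRNA arm. The difference between the arms' DEX differences was at most 0.14 in size among the 7 (Rab3d, −0.14), where 1.71% of all genes and 0.205% of 8301 genes of the same class passed 1.5-fold.

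**Figure D3:**
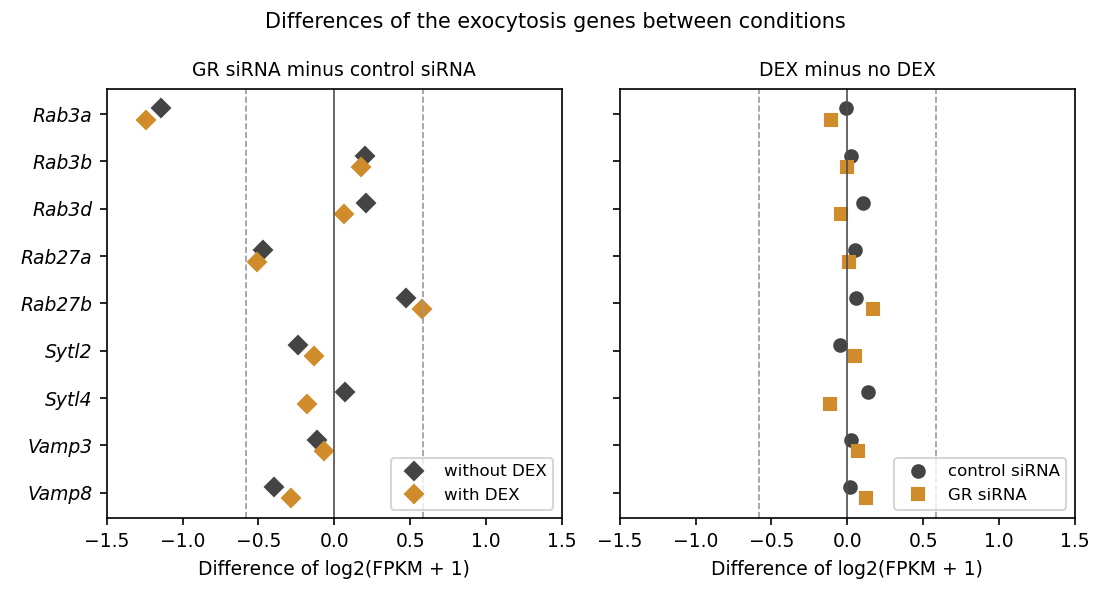
Differences of log2(FPKM + 1) of the 9 genes for GR siRNA minus control siRNA (left, without and with DEX) and for DEX minus no DEX (right, in each siRNA arm); dashed lines mark 1.5-fold. Rab3a alone passes a dashed line, at −1.14 and −1.24 in the left panel, Rab27b reaches 0.58 with DEX, and all points of the right panel lie inside the lines.

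Over 9135 genes of at least 5 FPKM, the 4-column pattern nearest to that of Rab3a was that of Nr3c1 itself, at a Euclidean distance of 0.093 between centred log2(FPKM + 1) values. Next came Masp1, a serine protease of the lectin complement pathway, at a distance of 0.097 (7.64, 7.20, 3.06 and 2.76 FPKM in the order used above) and Pak3, a p21-activated kinase, at 0.10 (10.4, 9.74, 3.94 and 3.95 FPKM). With 4 columns that separate mainly by siRNA, any gene lower by a like amount has such a pattern.

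The other secretion genes were read from 6 lists with 134 rows found, of which 101 reached 1 FPKM. Between GR siRNA and control siRNA, 37 were higher and 35 lower both without and with DEX. Over all 11224 genes compared in both, 4137 were higher in both and 4679 lower in both. At 1.5-fold in both, 3 were lower (Plat, Ap1s1 and Rab15) and 1 was higher (Selp), where 1.64% of 11224 genes were lower in both and 1.40% higher in both. The median difference was −0.01 without DEX and 0.02 with DEX, close to that of all genes.

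Most other effectors of Rab3 and Rab27 were scarce: 2 of 15 reached 1 FPKM. Rph3al, whose protein Noc2 binds Rab3 and Rab27, was 8.22 and 8.56 FPKM with control siRNA and 6.39 and 6.22 FPKM with GR siRNA, the lower pair (log2 differences −0.32 and −0.40). Unc13b, a Munc13 priming factor, was 0.88 and 1.05 FPKM against 1.35 and 1.33 FPKM. Of 14 measured regulators of the Rab cycle, 0 passed 1.5-fold in either siRNA comparison, near the background of 4.9% of all genes without DEX and 4.98% with DEX in either direction; 9 were higher and 5 lower in each, and the medians were 0.04 and 0.07. Madd, the exchange factor that activates Rab3 and Rab27, was 5.76 and 5.78 FPKM against 6.54 and 6.11 FPKM. Rabggtb, a subunit of the enzyme that attaches the lipid anchor to Rabs, was 73.6 and 78.4 FPKM against 66.2 and 67.1 FPKM, and Chml, an escort protein for that step, was 3.92 and 3.63 FPKM against 4.44 and 4.67 FPKM. Rabif was 19.0 and 19.1 FPKM against 21.7 and 22.0 FPKM, and Rab3il1, an exchange factor of low abundance, ran from 0.82 to 1.24 FPKM.

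Among SNAREs and their partners, 0 of 32 measured passed 1.5-fold in either siRNA comparison, against the same 4.9% and 4.98% of all genes; 13 were higher and 19 lower without DEX, and 14 and 18 with DEX. Stx3, a plasma membrane syntaxin that also sits on granules, was 15.6 and 15.8 FPKM with control siRNA and 11.2 and 10.9 FPKM with GR siRNA (log2 differences −0.45 and −0.50). Stx7, a syntaxin of late endosomes, was 48.4 and 48.2 FPKM against 37.4 and 41.6 FPKM. Higher pairs were seen for Nsf, the ATPase that takes spent SNARE complexes apart (41.0 and 40.5 FPKM against 52.3 and 51.7 FPKM), for Syt11, a synaptotagmin (1.49 and 1.42 against 2.57 and 2.25 FPKM), and for Stx11 (5.11 and 5.46 against 6.94 and 6.47 FPKM).

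The proteins stored for release went in different directions. Vwf, which forms the Weibel-Palade body, was of low abundance in these cultures, at 4.10 and 4.05 FPKM with control siRNA and 3.87 and 2.90 FPKM with GR siRNA, a log2 difference of −0.07 without DEX and −0.37 with DEX. Plat, tissue plasminogen activator, was 144 and 155 FPKM against 66.0 and 71.3 FPKM, differences of −1.12 and −1.11 that stand next to those of Rab3a. Selp, P-selectin, was 33.0 and 28.4 FPKM against 50.3 and 50.3 FPKM, past 1.5-fold in both DEX states; 12.5% of its 31-base words occur in another gene. Angpt2, a ligand of the Tie2 receptor, and Ccl2, a chemokine, passed 1.5-fold with DEX and not without it, a contrast that was not tested: Angpt2 was 3.50 and 2.84 FPKM against 4.70 and 5.33 FPKM, and Ccl2 was 33.7 and 24.4 FPKM against 41.6 and 47.9 FPKM. With 10 cargo genes measured, 5 were higher and 5 lower without DEX, and 6 were higher and 4 lower with DEX. At 1.5-fold, 1 was higher and 1 lower without DEX, where 2.36% and 2.54% of all genes were. With DEX, 3 were higher and 1 lower, where 2.36% and 2.62% of all genes were.

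Of 33 measured genes of granule formation and release, 0 were 1.5-fold higher and 2 were 1.5-fold lower in each siRNA comparison, where 2.54% and 2.62% of all genes were lower. Ap1s1, a small subunit of the AP-1 clathrin adaptor, a complex needed to form Weibel-Palade bodies, was 128 and 130 FPKM with control siRNA and 77.6 and 72.0 FPKM with GR siRNA (log2 differences −0.72 and −0.85). Rab15, another GTPase of Weibel-Palade bodies, was 2.98 and 2.69 FPKM against 1.15 and 1.13 FPKM (−0.88 and −0.79). Ralb, a small GTPase that recruits the exocyst, was 92.3 and 89.3 FPKM against 70.1 and 66.0 FPKM, and Rapgef3, the cAMP sensor Epac1, was 41.8 and 44.0 FPKM against 33.6 and 31.1 FPKM. Rab32, a GTPase of lysosome-related organelles, was the higher pair with GR siRNA, at 19.6 and 19.7 FPKM against 26.0 and 28.6 FPKM. The exocyst, a tether of vesicles at the plasma membrane, had 0 of 10 genes past 1.5-fold in either siRNA comparison, against 4.9% and 4.98% of all genes; Exoc6 differed most, at 14.9 and 14.6 FPKM against 18.0 and 18.9 FPKM, and Exoc1, Exoc3l, Exoc6b and Exoc7 had differences between −0.21 and −0.08.

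**Figure D4:**
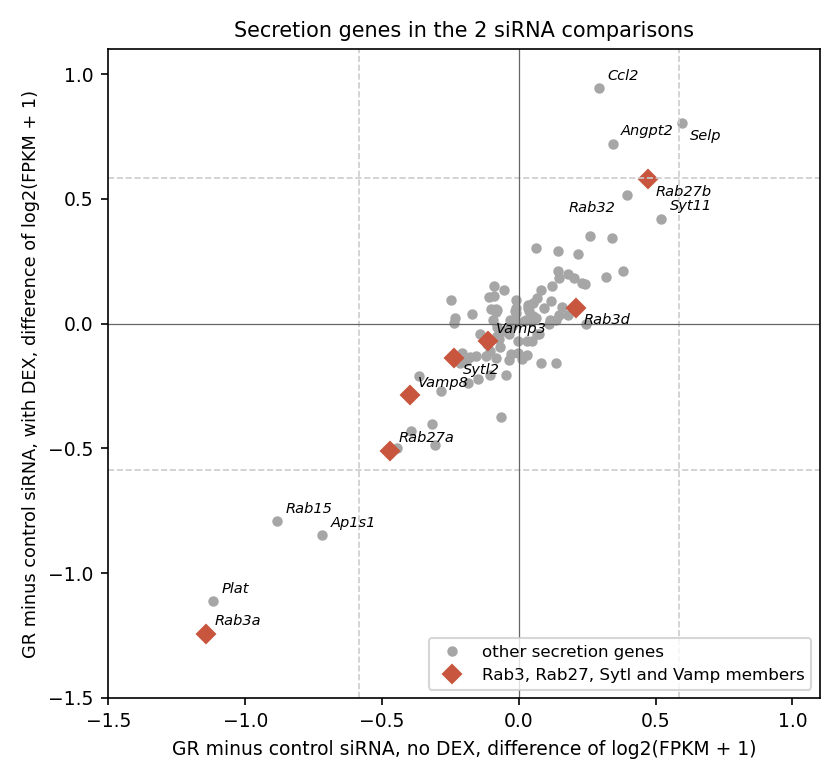
Difference of log2(FPKM + 1) between GR siRNA and control siRNA without DEX (horizontal) and with DEX (vertical) for 7 members (diamonds) and 101 other secretion genes (grey points) that reached 1 FPKM; dashed lines mark 1.5-fold. Rab3a and Plat lie at the lower left, near −1.14 and −1.12 on the horizontal axis, followed by Rab15 and Ap1s1, while most points lie inside the dashed lines.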

How the data were processed

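RNA-seq was analysed in 4 samples, 1 per condition. Per the submitters' processing notes, the authors used TopHat2 (alignment) and Cuffdiff on mm10; versions, annotation, strand setting and what was done with replicates were not given in the sources used here. The authors deposited FPKM per gene, which keep no read counts; a fragment shared by similar genes is assigned by estimate, and a gene listed at 0 may be a failed estimate. Columns were matched to samples by name.

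Differences were computed on log2(FPKM + 1) with pandas 2.3.3 and numpy 2.4.6 over genes that reached 1 FPKM in a column compared. With 1 column per condition no test was run, and the limma fit planned for replicate columns was not used. The counting step was tested on simulated data. Alternatives were other pseudocounts, filters and scalings, and a class of long, unshared genes chosen after seeing the data.

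The members and the lists (188 symbols, 187 found, 2 of them by an older symbol) were chosen with earlier results of these data known. Beyond the members and Nr3c1, genes were named by rule: up to 5 per secretion list with the largest mean siRNA difference at 1 FPKM or more, with Vwf and Selp; the 3 highest markers per cell type; and the 3 patterns nearest to a member of at least 5 FPKM that passed 1.5-fold in both DEX states. Gene positions and shared 31-base words came from GENCODE M21, and promoters from RefSeq, with chromosome 18 left out for the members.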

Additional observations from a re-analysis of the deposited data

Results flagged for a closer look

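Ccl2 and Angpt2, both listed as Weibel-Palade body cargo, had DEX differences of opposite direction in the siRNA arms, each of at least 1.1-fold on the log2(FPKM + 1) scale; no member did so at 1 FPKM or more. For Ccl2 the log2 difference for DEX was −0.45 with control siRNA and 0.20 with GR siRNA, 0.65 apart. For Angpt2 it was −0.23 and 0.15, 0.38 apart. With 1 column per condition these differences between the arms were not tested.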

How the results depend on the processing

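No paired analysis was possible because the table holds 1 column per condition; for the same reason no replicate could be left out. Under pseudocounts of 0.1 and 0.5 and 2 rescalings (upper quartile, median ratio), 0 of 180 member values changed sign. Rab3a stayed between −1.22 and −1.12 without DEX and between −1.34 and −1.22 with DEX. The 1.5-fold limit was crossed 6 times: by Rab27b with DEX under all 4 alternatives (0.59 to 0.68), and by Rab3b, below 1 FPKM, with a pseudocount of 0.1 (1.01 without and 0.84 with DEX). Over the lists, 18 of 215 medians changed sign. A class of long, unshared genes was chosen after seeing the data (under 10% of 31-base words shared, longest transcript of at least 300 nt). It also requires a symbol matched to exactly 1 GENCODE gene, so genes without such a match drop out too. Restricted to this class, 341 genes (from 555) passed 1.5-fold for GR siRNA without DEX and 360 (from 565) with DEX. For DEX the counts were 5 (from 121) in control siRNA cells and 6 (from 133) in GR siRNA cells. The interaction had 17 (from 196), and the cause of these lower counts was not tested. Under the other alternatives, counts over both directions stayed within 1.5 times. In 1 direction, a pseudocount of 0.1 gave 408 higher genes (from 267) for GR siRNA without DEX, 427 (from 268) with DEX and 130 (from 86) for the interaction. The absolute depth is unknown, which limits Rab3b and Sytl4 most.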

Other observations

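Some genes of the lists fall outside the naming rule and were chosen after their values were seen. Myrip, the Rab27a effector that links Weibel-Palade bodies to actin, was under 1 FPKM in every column, at 0.74 and 0.75 FPKM with control siRNA and 0.26 and 0.26 FPKM with GR siRNA, without and with DEX. Cd63, a tetraspanin of Weibel-Palade bodies and late endosomes, was the most abundant cargo gene, between 1020 and 1096 FPKM. Edn1, endothelin 1, was lower with DEX in both arms, at 7.69 against 5.63 FPKM with control siRNA and 7.36 against 6.27 FPKM with GR siRNA. The plasma membrane partners of the VAMPs were abundant in every condition, with Snap23 between 52.7 and 57.6 FPKM and Stx4a between 47.6 and 53.5 FPKM.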
